A study of Mus musculus with 36 samples.

Results

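Disease-associated microglia genes are a set of transcripts that microglia, the resident macrophages of the brain, raise around amyloid plaques, dying neurons and damaged myelin. The 10 genes described here were Apoe, Trem2, Tyrobp, Cst7, Lpl, Itgax, Spp1, Axl, Gpnmb and Bhlhe40, a fixed list of gene symbols looked up in the annotation of the microglial table. The rule for membership uses no expression value, but the list was drawn up with earlier results of these data known. All 10 had a row among the 15385 genes of the microglial table, and 9 of them were among the 10524 genes tested there. In the astrocyte table of 14551 genes, 8 of the 10 had a row and all 8 were tested, while Cst7 and Itgax were not listed.

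In this state, the lipid-sensing receptor TREM2 signals through its adaptor TYROBP, and cells load their lysosomes with myelin and lipoprotein debris. Apolipoprotein E and lipoprotein lipase handle that lipid, AXL binds dying cells, and osteopontin (Spp1), cystatin F (Cst7), GPNMB and the integrin CD11c (Itgax) are among its best-known markers. BHLHE40 is a transcriptional repressor of the basic helix-loop-helix family. The genes of resting, homeostatic microglia, such as Cx3cr1, P2ry12 and Tmem119, are known to go down when this set goes up.

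RNA was measured in cultured microglia and astrocytes of C57BL/6 mouse pups aged 2 to 4 days, after 4 h of treatment. Brains were pooled at harvest, mixed glia were grown for 12 days in serum, microglia were taken out with CD11b beads, and astrocytes were isolated from the cells left behind. Microglia received 1 of 6 treatments in 4 libraries each: the vehicle DMSO, the RIPK1 kinase inhibitor Nec-1s, TNF plus 5z-7, which inhibits TAK1 (T/5z), TNF plus a Smac mimetic and the caspase inhibitor zVAD (T/S/Z), and each of these stimuli together with Nec-1s, written with a closing N (T/5z/N, T/S/Z/N). Astrocytes received DMSO, Nec-1s, T/S/Z or the latter with Nec-1s, in 3 libraries per treatment. T/5z is used to trigger RIPK1-dependent apoptosis and T/S/Z to trigger necroptosis, and Nec-1s was added to ask which changes needed the kinase. The labels name the same strain and no genetic change for every group, and no group without vehicle was used. In bulk RNA of treated wells, fewer cells of a type and less RNA per cell cannot be told apart.

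The values are levels of log2(FPKM + 1), where FPKM is the number of fragments scaled to exon length and library size. The 10 microglial markers summed to between 1.37% and 1.72% of all FPKM in microglial libraries, and the 10 astrocyte markers to at most 0.0055%. With T/S/Z the microglial sum was 1.37% to 1.47%, below every library of the other treatments (1.58% to 1.70% with DMSO). In astrocyte libraries, astrocyte markers took 0.804% to 0.948% and microglial markers 0.0129% to 0.0222%. The homeostatic markers P2ry12 and Tmem119 were low in microglia given DMSO, at 4.27 and 9.04 FPKM, beside 252 FPKM for Cx3cr1. Sequencing depth, estimated from the steps between low values and counted in units of 1000000 fragments, was 39.7 to 42.3 for astrocytes and 21.8 to 29.6 for microglial replicate 4, and could not be estimated for microglial replicates 1 to 3. In the microglial table each gene's mean over the 6 treatments was the same in all 4 replicates (largest difference, 8.33e-05), so the spread between microglial libraries given below holds no difference between the replicates' own means. How the values came to be so, and whether differences within a replicate were altered too, is not given in the sources used here. Values after ± are SEs of changes, moderated in the limma fit towards a trend over all genes. They can differ from the spread of a gene's own pairs.

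The 4 promoters below are those of the members that passed the test in at least 1 stimulated group and had an entry in the RefSeq table (GRCm38.p6), which held 7 of the 10 members. Each is the 250 bases before the transcript start, written 5′ to 3′ on the gene's strand, with capitals for a match to 1 of 7 motifs searched on both strands. They are Spp1 at chr5:104434861-104435110 (plus strand, the first of its starts in the table), Gpnmb at chr6:49036268-49036517 (plus), Trem2 at chr17:48346151-48346400 (plus) and Axl at chr7:25788734-25788983 (minus).
Spp1: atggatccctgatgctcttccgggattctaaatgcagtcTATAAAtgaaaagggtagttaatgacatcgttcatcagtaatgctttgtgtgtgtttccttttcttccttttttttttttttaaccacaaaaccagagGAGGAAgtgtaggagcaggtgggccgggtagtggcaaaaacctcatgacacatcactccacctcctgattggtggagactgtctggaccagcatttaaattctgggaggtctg
Gpnmb: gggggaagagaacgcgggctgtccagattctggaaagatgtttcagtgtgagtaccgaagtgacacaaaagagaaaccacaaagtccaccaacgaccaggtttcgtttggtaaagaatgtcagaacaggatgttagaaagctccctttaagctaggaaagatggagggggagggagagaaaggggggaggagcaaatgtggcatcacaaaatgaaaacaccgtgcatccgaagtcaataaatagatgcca
Trem2: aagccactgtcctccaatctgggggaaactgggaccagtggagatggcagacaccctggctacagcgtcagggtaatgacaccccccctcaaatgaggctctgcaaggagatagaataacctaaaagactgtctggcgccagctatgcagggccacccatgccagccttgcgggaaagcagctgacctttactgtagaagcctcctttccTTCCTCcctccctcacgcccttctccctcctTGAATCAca
Axl: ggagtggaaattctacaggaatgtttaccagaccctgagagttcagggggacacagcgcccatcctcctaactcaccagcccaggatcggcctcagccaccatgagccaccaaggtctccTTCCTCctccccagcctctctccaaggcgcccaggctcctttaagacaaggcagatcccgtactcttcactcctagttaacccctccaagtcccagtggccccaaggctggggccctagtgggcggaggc

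The capitals mark an ETS-type motif, the kind bound by the myeloid factor PU.1, which reads GAGGAA on one strand and TTCCTC on the other. They also mark the TATA box motif TATAAA and the AP-1 motif TGANTCA. Spp1 held GAGGAA 113 bases before the start and TATAAA 211 bases before it. Trem2 held TGAATCA 9 bases and TTCCTC 40 bases before the start, and Axl held TTCCTC 130 bases before it. Gpnmb held none of the 7. Of 32851 RefSeq promoters of this length, 23.3% held GAGGAA, 12.4% TATAAA and 6.75% TGANTCA. The other 4 motifs were GGNNTTTCC (NF-kB, 4.93% of promoters), CACGTG (E-box, 6.02%), TCATGTG (M-box, 3.25%) and TGACGTCA (CRE, 1.55%), and none of the 4 printed windows held one of them. No motif overlaps another in these 4 windows, and a match describes letters only.

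Cultured microglia already expressed most of the set without any stimulus. Apoe, which encodes the main apolipoprotein of the brain, was the most abundant gene of the microglial table, at 20885 FPKM (mean of the 4 DMSO libraries) and 3.82% to 5.04% of all FPKM. It was followed by Spp1 at 1353 FPKM (rank 26 of all genes), Tyrobp at 1271 (rank 27), Trem2 at 757 (rank 64), Gpnmb at 627 (rank 87) and Lpl at 358 (rank 185). Axl stood at 82.1 FPKM (rank 831), Cst7 at 13.5 (rank 4445), Bhlhe40 at 4.37 (rank 7619) and Itgax at 0.463 (rank 11048). FPKM is per exon length, so this order compares genes, and among neighbours in the order the DMSO ranges overlapped for Spp1 and Tyrobp (1310 to 1422 and 1214 to 1404 FPKM) and for no other pair.

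The set did not move as a block with either stimulus. A gene was counted as changed when its fold change exceeded 1.5 and its adjusted p was under 0.05 (limma, paired by replicate, Benjamini-Hochberg over all genes tested). T/5z changed 2 of the 9 tested members, Bhlhe40 upwards and Gpnmb downwards, which is 22.2% beside 24.4% of all 10524 genes (11.1% upwards and 13.3% downwards). T/S/Z changed Bhlhe40 and Spp1, both upwards, again 2 of 9 beside 29.6% of all genes (12.2% upwards and 17.5% downwards). Both shares lay under the background. Without a fold minimum, 5 of 9 members passed with T/5z beside 64.2% of all genes and 6 of 9 with T/S/Z beside 71.3%, and the libraries did not overlap DMSO in 6 of 9 beside 63.5% and in 5 of 9 beside 69.5%. The median log2 change of the tested members was -0.051 for T/5z, against -0.058 over all genes tested, and 0.059 for T/S/Z, against -0.085. Comparisons with DMSO share the same DMSO libraries, and each stimulus is shared by its comparison with DMSO and its comparison with Nec-1s.

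**Figure D1:**
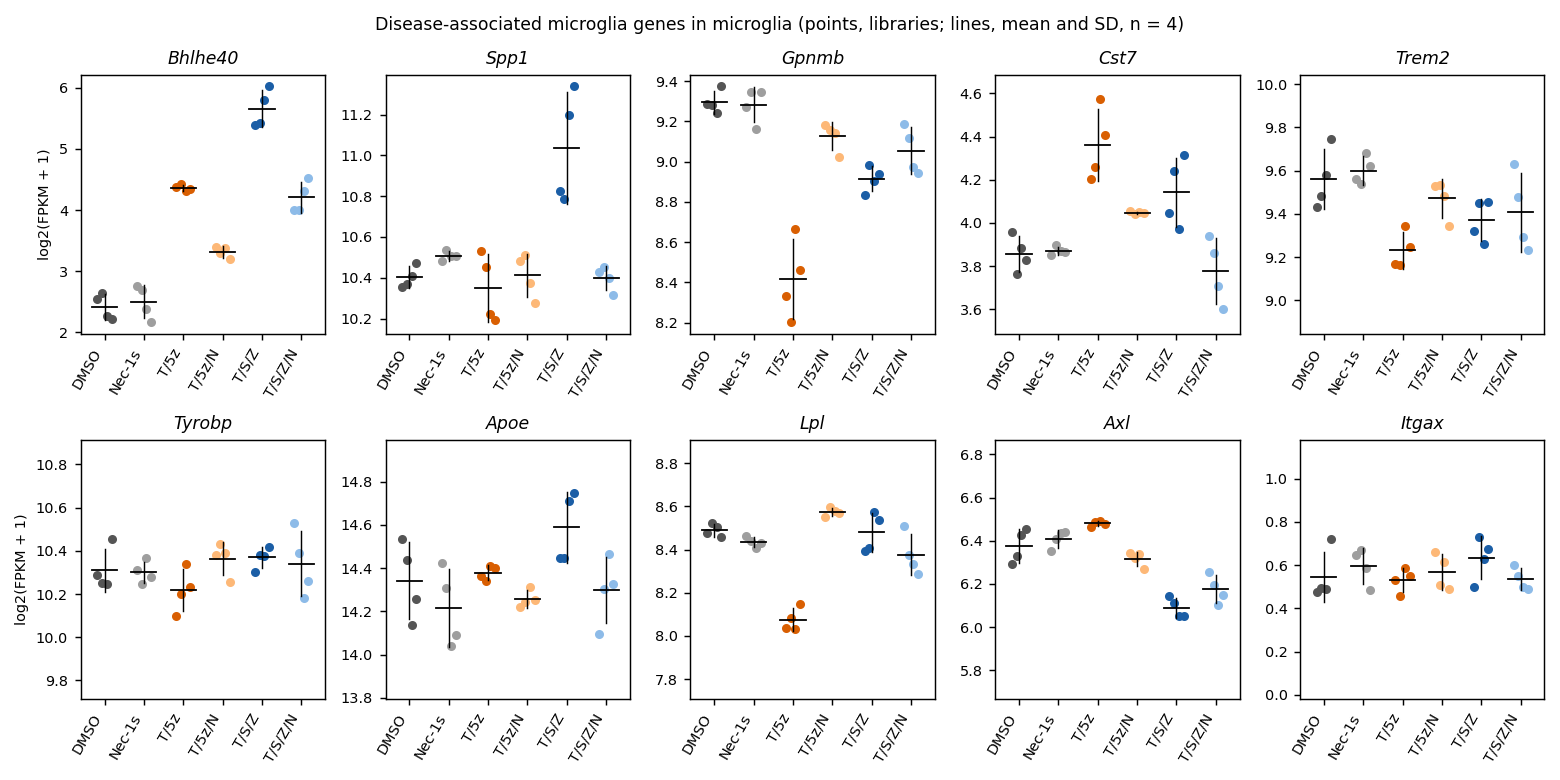
Level of each of the 10 genes in the 24 microglial libraries, as log2(FPKM + 1) on an axis scaled per gene, for 6 treatments; points are libraries, horizontal lines means and vertical lines SDs (n = 4). Bhlhe40 steps up from DMSO to T/5z and T/S/Z and part of the way back with Nec-1s, Gpnmb dips with T/5z, Spp1 stands high with T/S/Z alone, and Itgax reaches at most 0.73.

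Bhlhe40 had the largest response of the set. Its log2 levels in replicates 1 to 4 were 2.55, 2.64, 2.26 and 2.21 with DMSO, 4.37, 4.42, 4.32 and 4.34 with T/5z, and 5.39, 5.42, 5.80 and 6.03 with T/S/Z. The groups did not overlap, and with T/S/Z replicates 3 and 4 stood above replicates 1 and 2. The log2 change was 1.95 ± 0.074 with T/5z (n = 4 pairs, adjusted p = 1.78e-06) and 3.25 ± 0.17 with T/S/Z (adjusted p = 2.32e-06), ranks 190 and 63 from the top of all 10524 genes. In FPKM the means went from 4.37 to 19.6 and 50.5. T/S/Z exceeded T/5z by 1.30 ± 0.12 (adjusted p = 0.00022).

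Bhlhe40 fell part of the way back with Nec-1s. Levels were 3.39, 3.29, 3.38 and 3.19 with T/5z/N and 4.00, 4.00, 4.32 and 4.52 with T/S/Z/N. These lay below the stimulus alone and above DMSO in every replicate. The log2 change on adding Nec-1s was -1.05 ± 0.054 after T/5z (adjusted p = 4.58e-06) and -1.45 ± 0.043 after T/S/Z (adjusted p = 7.52e-07), and Bhlhe40 still exceeded DMSO by 0.90 ± 0.085 (adjusted p = 7.39e-05) and 1.79 ± 0.16 (adjusted p = 7.26e-05). The first of these was 0.58, under the 1.5-fold minimum, with 5 in place of 1 added before the log. The study itself singled out Bhlhe40 as RIPK1-dependent from these libraries, so this result is no independent evidence of the direction. Bhlhe40 (chromosome 6, 108660629 to 108666925, plus strand, GRCm38) overlaps the antisense transcript 0610040F04Rik in GENCODE M21, and the strand setting of the microglial libraries is not stated, so reads of the pair cannot be told apart there.

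Spp1 encodes osteopontin, a secreted ligand of integrins and CD44. Its log2 levels were 10.36, 10.37, 10.41 and 10.47 with DMSO, 10.83, 10.79, 11.20 and 11.34 with T/S/Z, and 10.43, 10.45, 10.40 and 10.32 with T/S/Z/N. All 4 T/S/Z libraries lay above every DMSO and T/S/Z/N library, and replicates 3 and 4 were again the highest. The log2 change was 0.63 ± 0.080 with T/S/Z (adjusted p = 0.00022) and -0.64 ± 0.13 on adding Nec-1s (adjusted p = 0.0036). T/S/Z/N differed from DMSO by -0.0023 ± 0.077 (adjusted p = 0.98).

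For T/5z, Spp1 levels were 10.53, 10.45, 10.22 and 10.20, which overlapped DMSO, and the log2 change was -0.051 ± 0.083 (adjusted p = 0.61). T/S/Z exceeded T/5z by 0.69 ± 0.15 (adjusted p = 0.010). The Spp1 calls depended on the settings: after quantile normalization the change with T/S/Z was 0.064 (adjusted p = 0.60), and without replicate 3 or 4 it was 0.58 and 0.56, under the fold minimum. On adding Nec-1s it was -0.19 after quantile normalization and -0.58 and -0.51 without those replicates, and its adjusted p was 0.064 with ordinary variances. Spp1 (chromosome 5, 104435118 to 104441050, plus strand) overlaps the unclassified transcript Gm42793 on the same strand.

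Gpnmb, a lysosomal and surface glycoprotein of lipid-laden macrophages, was the 1 member lower with a stimulus by over 1.5-fold in microglia, while Lpl, Trem2 and Axl were lower by less, with an adjusted p under 0.05. Its log2 levels were 9.28, 9.28, 9.24 and 9.37 with DMSO, 8.33, 8.20, 8.67 and 8.46 with T/5z, and 9.18, 9.16, 9.14 and 9.02 with T/5z/N. The T/5z libraries lay below those of both other groups, and T/5z/N stood between. The log2 change was -0.88 ± 0.081 with T/5z (adjusted p = 9.37e-05) and 0.71 ± 0.079 on adding Nec-1s (adjusted p = 0.00022), rank 140 from the top of all genes.

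In T/S/Z libraries Gpnmb stood at 8.83, 8.98, 8.90 and 8.94. That is a change of -0.38 ± 0.045 (adjusted p = 0.00016), under the fold minimum, although it was -0.79 and past it after quantile normalization. On adding Nec-1s the levels were 9.18, 9.12, 8.97 and 8.94, a change of 0.14 ± 0.070 (adjusted p = 0.12). Without Nec-1s, T/S/Z exceeded T/5z by 0.50 ± 0.084 (adjusted p = 0.0034), which came past the fold minimum at 0.59 without replicate 3.

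Lpl hydrolyses the triglycerides of lipoproteins. Its log2 levels were 8.47, 8.52, 8.50 and 8.46 with DMSO, 8.04, 8.08, 8.03 and 8.15 with T/5z, and 8.55, 8.60, 8.58 and 8.57 with T/5z/N. The 3 groups did not overlap, and T/5z was the lowest. The change was -0.41 ± 0.046 with T/5z (adjusted p = 0.00024) and 0.50 ± 0.041 on adding Nec-1s (adjusted p = 4.63e-05), both under the 1.5-fold minimum, though the first was -0.64 and past it after quantile normalization. T/S/Z libraries, at 8.40, 8.41, 8.57 and 8.54, overlapped DMSO, with a change of -0.0099 ± 0.051 (adjusted p = 0.87), and on adding Nec-1s the change was -0.10 ± 0.073 (adjusted p = 0.25).

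Apoe, whose protein carries lipid out of the cell, passed in no comparison. Its log2 levels were 14.53, 14.44, 14.14 and 14.26 with DMSO, 14.36, 14.34, 14.41 and 14.40 with T/5z, and 14.45, 14.45, 14.71 and 14.75 with T/S/Z. Pair differences for T/S/Z were -0.087 and 0.0084 in replicates 1 and 2 and 0.57 and 0.49 in replicates 3 and 4, for a change of 0.25 ± 0.11 (adjusted p = 0.076). For T/5z it was 0.037 ± 0.086 (adjusted p = 0.72). The mean FPKM of Apoe went from 20885 with DMSO to 24759 with T/S/Z, but its mean share of all FPKM from 4.41% to 4.30%. Adding Nec-1s gave -0.12 ± 0.091 in T/5z cells and -0.29 ± 0.21 in T/S/Z cells, with adjusted p = 0.30 and 0.26. The pair differences were below 0 in 4 of 4 replicates both times, from -0.15 to -0.095 and from -0.42 to -0.14. T/5z/N libraries lay below those of T/5z without overlap, and T/S/Z/N overlapped T/S/Z. For this most abundant gene the moderated SEs are wide beside the pair differences.

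Trem2 and Tyrobp encode the receptor and its signalling adaptor. Trem2 levels were 9.43, 9.48, 9.58 and 9.75 with DMSO, 9.17, 9.16, 9.34 and 9.25 with T/5z, and 9.32, 9.45, 9.26 and 9.46 with T/S/Z. The T/5z libraries lay below all DMSO libraries, and those of T/S/Z overlapped them. The change was -0.33 ± 0.056 with T/5z (adjusted p = 0.0017) and -0.19 ± 0.058 with T/S/Z (adjusted p = 0.020), below 0 in 4 of 4 replicates but under the fold minimum both times. On adding Nec-1s, Trem2 differed by 0.24 ± 0.061 after T/5z (adjusted p = 0.012) and by 0.036 ± 0.088 after T/S/Z (adjusted p = 0.74).

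Tyrobp stayed within a narrow band. Its levels were 10.29, 10.25, 10.25 and 10.46 with DMSO, 10.10, 10.20, 10.34 and 10.23 with T/5z, and 10.30, 10.38, 10.38 and 10.42 with T/S/Z. All 3 groups overlapped. The changes were -0.092 ± 0.063 and 0.059 ± 0.046 (adjusted p = 0.24 and 0.28), and over the 24 libraries the level spanned 10.10 to 10.53. Adding Nec-1s gave 0.15 ± 0.061 in T/5z cells (adjusted p = 0.080), above 0 in 4 of 4 replicates, and -0.028 ± 0.091 in T/S/Z cells (adjusted p = 0.80).

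Cst7 encodes cystatin F, an inhibitor of lysosomal cysteine proteases. Its levels were 3.96, 3.76, 3.88 and 3.83 with DMSO, 4.21, 4.26, 4.58 and 4.41 with T/5z, and 4.05, 4.24, 3.97 and 4.31 with T/S/Z. Both stimulated groups lay above DMSO without overlap. The change was 0.50 ± 0.078 with T/5z (adjusted p = 0.0011), under the fold minimum and past it at 0.59 without replicate 1, and 0.29 ± 0.089 with T/S/Z (adjusted p = 0.021). On adding Nec-1s, the Cst7 change was -0.31 ± 0.065 (adjusted p = 0.0049) after T/5z and -0.37 ± 0.091 (adjusted p = 0.010) after T/S/Z, below 0 in 4 of 4 replicates each, and neither reached the fold minimum.

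Axl is a receptor tyrosine kinase of the TAM family that recognises dying cells through the bridging protein GAS6. Its levels were 6.29, 6.33, 6.43 and 6.45 with DMSO, 6.46, 6.48, 6.49 and 6.48 with T/5z, and 6.14, 6.11, 6.05 and 6.05 with T/S/Z. No T/5z or T/S/Z library overlapped DMSO, but T/5z lay above it and T/S/Z below it. The changes were small, 0.11 ± 0.047 (adjusted p = 0.086) and -0.29 ± 0.059 (adjusted p = 0.0031). Compared directly, T/S/Z differed from T/5z by -0.39 ± 0.046 (adjusted p = 0.00066), and the fold minimum was not reached. Adding Nec-1s gave -0.16 ± 0.037 after T/5z (adjusted p = 0.0076) and 0.087 ± 0.040 after T/S/Z (adjusted p = 0.096).

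Itgax, the integrin alpha chain CD11c that pairs with the beta chain ITGB2, was too low to be tested. Its log2 levels ran from 0.46 to 0.73 over all 24 libraries, under the minimum of 1 that a gene needed to be tested. All 6 treatments overlapped, with means between 0.53 and 0.63, and no difference between treatments was tested.

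**Figure D2:**
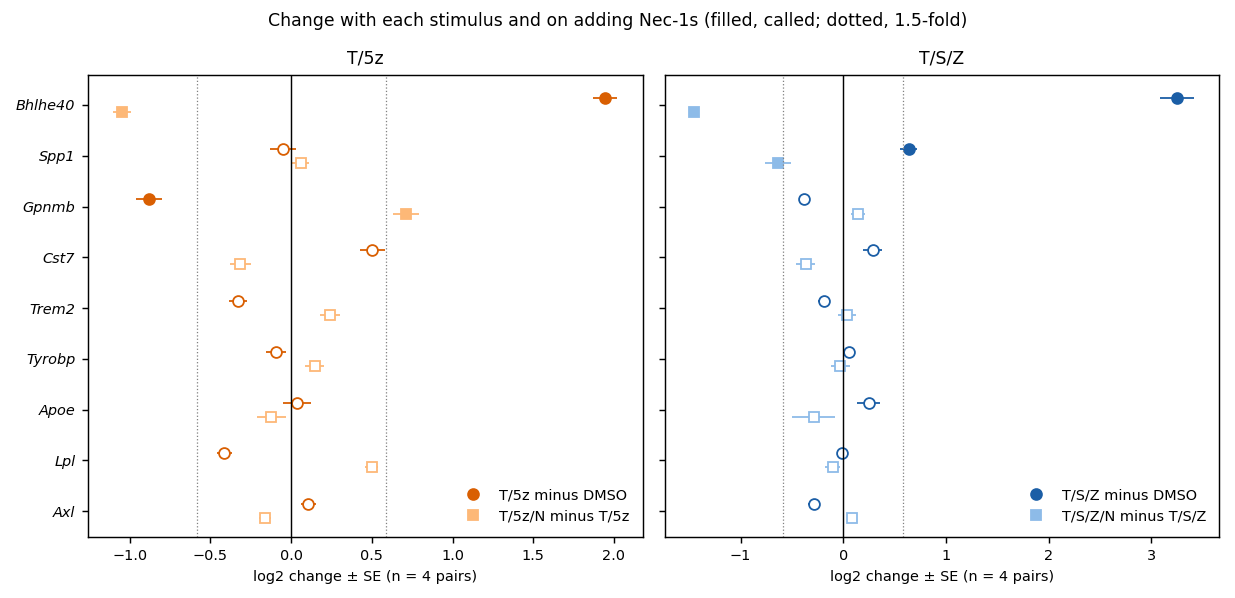
Log2 change ± SE of the 9 tested genes in microglia (n = 4 pairs), with the stimulus against DMSO as circles and Nec-1s added to the stimulus as squares, for T/5z on the left and T/S/Z on the right; filled symbols passed the test and dotted lines mark 1.5-fold. Bhlhe40 at 1.95 and 3.25 lies far from the other genes, whose changes with either stimulus run from -0.88 (Gpnmb, T/5z) to 0.63 (Spp1, T/S/Z).

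Nec-1s alone changed no member. The 9 changes ran from -0.13 (Apoe) to 0.11 (Spp1), and the smallest adjusted p was 0.53, although 2 members, Apoe and Spp1, had an unadjusted p under 0.05. Over all genes limma called 0% with Nec-1s alone, and 892 of 10524 genes had an unadjusted p under 0.05.

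Added to T/5z, Nec-1s changed Bhlhe40 (downwards) and Gpnmb (upwards), 2 of 9 members (22.2%) beside 7.16% of all genes (2.64% upwards and 4.52% downwards). Without a fold minimum 6 of 9 passed, beside 48.3%. Added to T/S/Z, it changed Bhlhe40 and Spp1, both downwards, again 2 of 9 beside 12.1% of all genes (5.35% upwards and 6.72% downwards), and 3 of 9 passed without a fold minimum beside 57.8%.

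Against DMSO, cells that had a stimulus with Nec-1s differed in 1 member. Bhlhe40 was the 1 of 9 in T/5z/N, where 12.8% of all genes changed (6.16% upwards, 6.69% downwards, and 40.5% without a fold minimum, beside 2 of 9 members). It was also the 1 of 9 in T/S/Z/N, where 14.1% did (6.2% upwards, 7.87% downwards, and 46% without a fold minimum, beside 3 of 9 members). Between the stimuli, T/S/Z exceeded T/5z in Bhlhe40 and Spp1, 2 of 9 beside 9.83% of all genes (5.42% upwards, 4.42% downwards, and 40% without a fold minimum, beside 5 of 9 members). With Nec-1s present, Bhlhe40 was higher after T/S/Z than after T/5z by 0.90 ± 0.10 (adjusted p = 0.00046, and 0.074 with ordinary variances), 1 of 9 members beside 3.38% of all genes (1.8% upwards, 1.59% downwards, and 26.2% without a fold minimum, beside 4 of 9).

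An interaction over 4 groups of microglia asked whether Nec-1s acted differently after the 2 stimuli. It passed for Spp1 and Lpl, 2 of 9 members beside 6.47% of all genes (2.7% upwards, 3.77% downwards, and 25.9% without a fold minimum, beside 4 of 9 members). For Spp1 the effect of Nec-1s after T/S/Z minus that following T/5z was -0.70 ± 0.17 (adjusted p = 0.0089), and for Lpl it was -0.60 ± 0.081 (adjusted p = 0.00012). Without replicate 3 these were -0.61 (adjusted p = 0.062) and -0.54, and without replicate 4 -0.56 and -0.58, so that both calls were lost when either replicate was left out, and after quantile normalization they were -0.34 and -0.36. For Gpnmb the difference was -0.57 ± 0.12 (adjusted p = 0.0038), under the fold minimum, and for Bhlhe40 it was -0.40 ± 0.16 (adjusted p = 0.088).

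**Figure D3:**
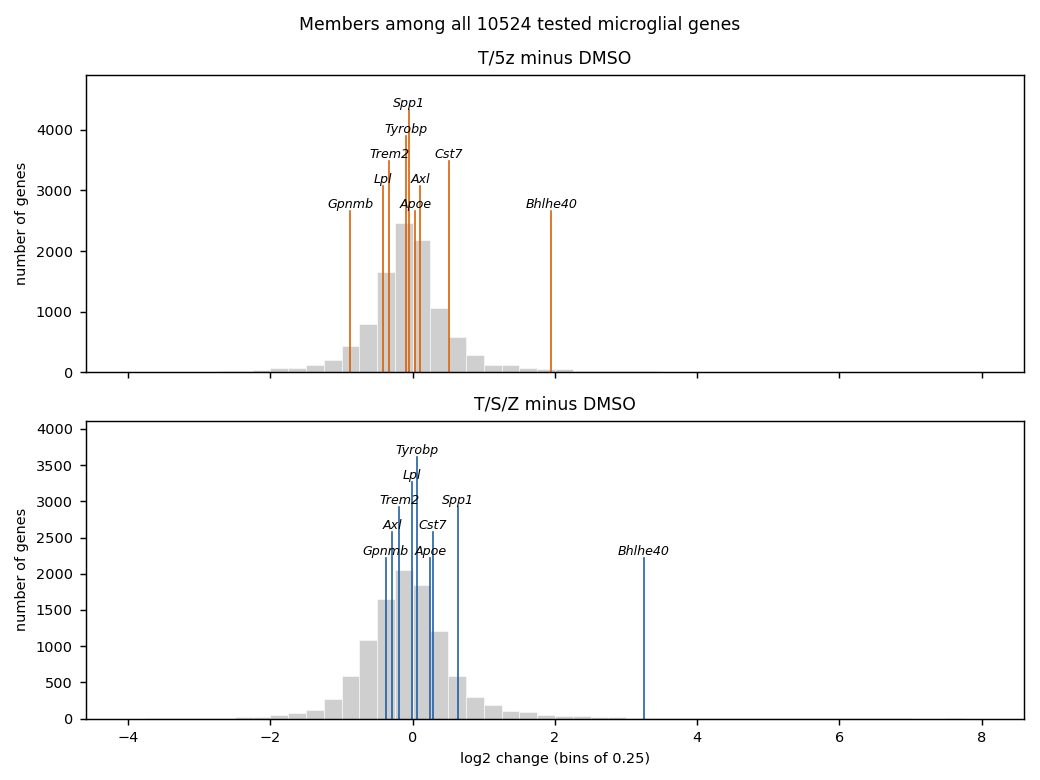
Number of all 10524 tested microglial genes per bin of 0.25 in log2 change (grey bars), with T/5z above and T/S/Z below, and vertical lines for the 9 tested disease-associated microglia genes. Most lines fall in the centre of the distribution, Gpnmb at -0.88 and Spp1 at 0.63 lie on its shoulders, and Bhlhe40 at 1.95 and 3.25 lies in the right tail.

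A list of 36 other disease-associated microglia genes, all tested, changed in both directions. T/5z changed 11 of 36 (30.6%, beside 24.4% of all genes), 6 upwards and 5 downwards. T/S/Z changed 14 (38.9%, beside 29.6%), 11 upwards and 3 downwards. The largest rises were those of Ch25h, which makes the oxysterol 25-hydroxycholesterol, and Cd83, a surface marker of activated myeloid cells. Ch25h went from log2 levels of 1.81 to 2.44 with DMSO to 6.25 to 6.79 with T/5z and 8.00 to 8.36 with T/S/Z, changes of 4.36 ± 0.091 (adjusted p = 3.70e-07) and 6.02 ± 0.15 (adjusted p = 9.40e-08). The study named Ch25h from these libraries too. Like Spp1 and Bhlhe40, Ch25h carries a mark for confounded genes in the deposited annotation, which 7834 of the 15385 genes carry and which is not defined in the sources used here.

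Cd83 rose by 2.69 (T/5z) or 2.50 (T/S/Z). The largest falls were in Plin2, which coats lipid droplets (-1.77 and -0.67), and Ank, a membrane transporter (-0.92 and -0.85). The median change of the list was -0.20 for T/5z but 0.16 for T/S/Z. On adding Nec-1s, 4 of 36 changed after T/5z (11.1%, beside 7.16%) and 9 after T/S/Z (25%, beside 12.1%), and all of these changes were downwards.

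**Figure D4:**
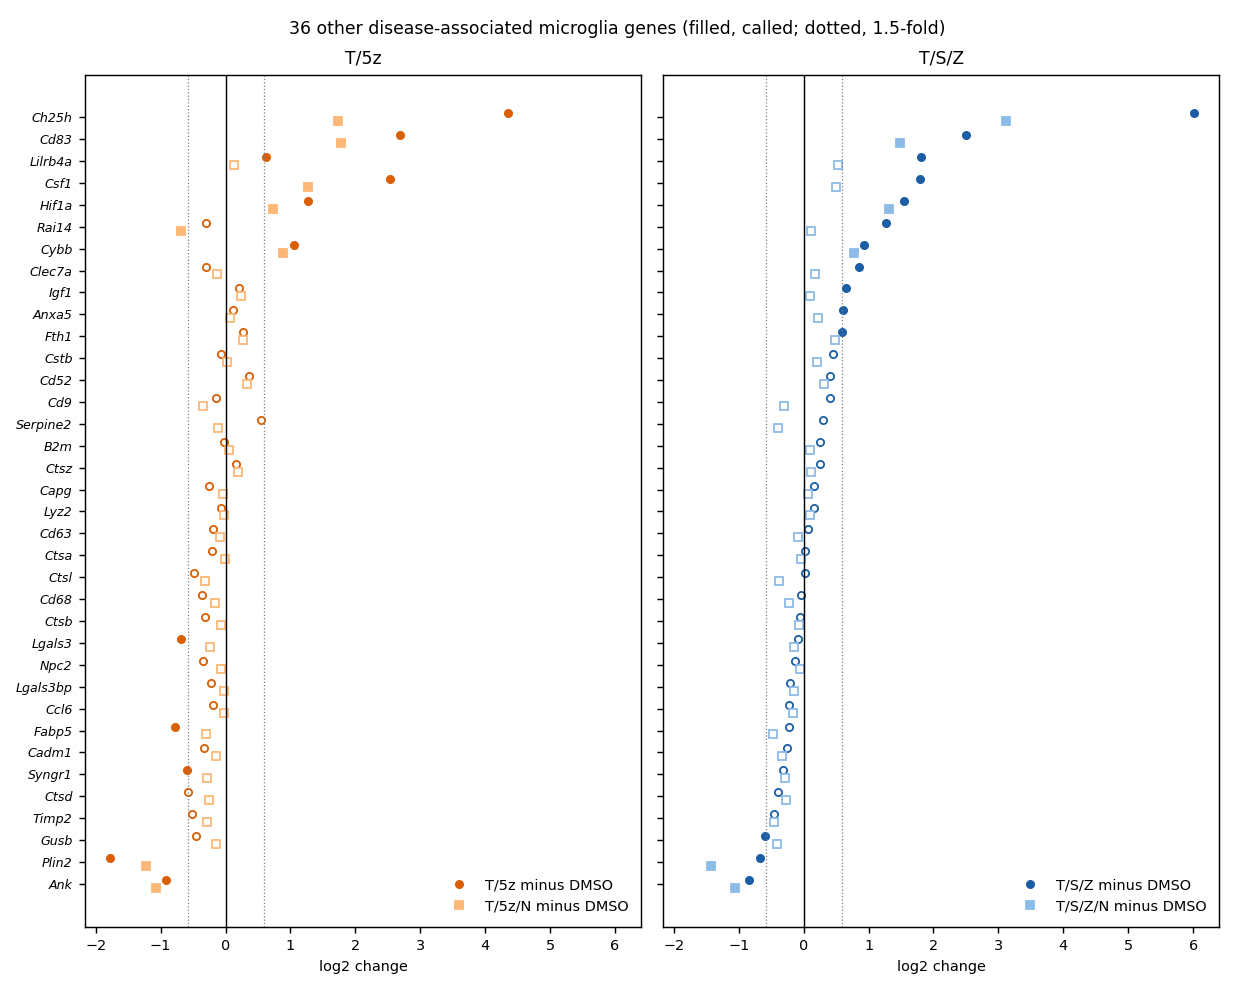
Log2 change against DMSO of 36 other disease-associated microglia genes in microglia, with the stimulus alone as circles and the stimulus with Nec-1s as squares, for T/5z on the left and T/S/Z on the right; filled symbols passed the test and dotted lines mark 1.5-fold. Ch25h (4.36 and 6.02) and Cd83 (2.69 and 2.50) stand above the rest, and their squares lie nearer to 0 than their circles.

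Homeostatic microglia genes moved mostly downwards. Among 16 tested, 8 changed with T/5z (50%, beside 24.4% of all genes), 6 of them downwards, and 7 with T/S/Z (43.8%, beside 29.6%), all downwards. Over all genes 13.3% and 17.5% changed downwards. Mertk, a TAM receptor for dying cells like Axl, fell by 2.38 with T/5z and by 2.32 with T/S/Z. The other named falls were Cx3cr1, the fractalkine receptor, by 1.59 with T/5z, and Txnip, a regulator of glucose uptake and redox state, by 1.98 with T/S/Z. Against the name of the list, Tmem119 rose by 1.58 and the purine receptor gene P2ry13 by 1.15 with T/5z, while P2ry13 was among the 7 that fell with T/S/Z (-0.72).

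Partners of the TREM2 and TYROBP pair changed in both directions. T/5z changed 7 of 17 (41.2%, beside 24.4% of all genes, 4 up and 3 down) and T/S/Z 6 of 17 (35.3%, beside 29.6%, 3 up and 3 down). Clec5a, another receptor that signals through TYROBP, rose by 3.58 and 3.79, and Syk, the kinase downstream of the adaptor, by 1.49 with T/5z. The inhibitory receptor gene Cd33 rose by 1.92 with T/S/Z. Inpp5d, a phosphatase that limits this pathway, fell by 1.75 and by 1.32, and the adaptor gene Card9 by 0.77 and by 0.76.

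Of 18 tested genes for apolipoproteins, lipoprotein uptake and the liver X receptors, 7 changed with each stimulus (38.9%, beside 24.4% and 29.6% of all genes, 3 up and 4 down both times). The oxysterol receptor gene Nr1h3 rose by 1.99 (T/5z) or 1.32 (T/S/Z). The nuclear receptor gene Pparg fell by 1.90 and Soat1, which esterifies cholesterol, by 1.21 with T/5z. The cholesterol exporter gene Abcg1 fell by 1.74 and Angptl4, an inhibitor of lipoprotein lipase, from a mean of 4.71 FPKM to 1.02 with T/S/Z. By limma, Nec-1s changed 0 of these 18 genes in T/5z cells, beside 7.16% of all genes, and 10 had an adjusted p under 0.05, beside 48.3%. It changed 2 of the 18 in T/S/Z cells (11.1%, beside 12.1%), and 9 had an adjusted p under 0.05, beside 57.8%.

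The 4 short lists that match single members gave the following counts, to be read beside the same 24.4% and 29.6% of all genes. Of 3 tested TAM receptors and ligands, Mertk and Gas6 fell with each stimulus, Gas6 by 0.74 both times. Of 7 integrin and osteopontin partners, 3 changed with T/5z but 4 with T/S/Z: the integrin genes Itgav (1.38 and 1.47) and Itgal (1.46 and 0.90) rose, Itgb5 fell (-1.64 and -1.54), and the osteopontin receptor gene Cd44 rose with T/S/Z (0.91). Of 6 proteases that cystatin F can inhibit, 1 changed with T/5z, Ctsc (0.63), and 0 with T/S/Z, where 2 had an adjusted p under 0.05 by limma. Of 5 MiT/TFE factors and the paralogue Bhlhe41, 4 changed with T/5z but 3 with T/S/Z: Tfec rose (3.91 and 2.93), Mitf rose with T/5z (0.85), Tfeb fell (-0.95 and -0.72), and Bhlhe41 fell with T/5z (-0.67) and rose with T/S/Z (0.71).

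For each member, the genes with the most similar pattern were found by the root mean square difference between log2 changes against DMSO over the 5 other microglial treatments. For Bhlhe40 they were Spryd7 (difference 0.14) and the glucose transporter gene Slc2a1 (0.16), which changed by 3.25 and 3.20 with T/S/Z. For Spp1 they were Fem1b (0.065) and the kinase gene Sgk1 (0.079), for Gpnmb AB124611 (0.091) and the lysosomal enzyme gene Hgsnat (0.093), and for Lpl Cd5l (0.060) and Anpep (0.075). For Apoe they were Usp31 (0.011) and Khdc4 (0.020), for Trem2 Tbc1d25 (0.022), and for Tyrobp Gm21092 (0.021) and Ggh (0.030). For Cst7 they were Ifitm1 (0.060) and Shisa4 (0.061), and for Axl Trim30d (0.035) and Tsc22d4 (0.045). For Itgax, itself untested, they were Nme2 (0.019) and Rpl11 (0.019), which changed by at most 0.10. Members with little change have near neighbours among the many genes with little change.

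In astrocytes, T/S/Z changed 3 of the 8 tested members, Bhlhe40 and Axl upwards and Trem2 downwards (37.5%), beside 15.4% of 13842 genes (6.39% upwards and 8.99% downwards). Without a fold minimum 5 of 8 passed beside 40.4%, and 6 of 8 did not overlap DMSO beside 46.9%. With ordinary variances, which leave 2 residual degrees of freedom, none of the 3 calls held (adjusted p between 0.056 and 0.11 by limma's linear model without moderation). The median log2 change over all genes was -0.11 and over the 8 members -0.16.

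Bhlhe40 was again the largest change. Its levels were 5.13, 5.06 and 5.02 with DMSO, 6.63, 6.54 and 6.73 with T/S/Z, and 6.45, 6.44 and 6.37 with T/S/Z/N. The T/S/Z change was 1.56 ± 0.078 (n = 3 pairs, adjusted p = 1.31e-05), and with Nec-1s Bhlhe40 still exceeded DMSO by 1.35 ± 0.061 (adjusted p = 6.49e-05). The difference on adding Nec-1s was below 0 in 3 of 3 replicates and did not pass the test (-0.22 ± 0.088, adjusted p = 0.15).

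Axl rose in astrocytes, from 5.89, 5.78 and 5.75 with DMSO to 6.59, 6.31 and 6.33 with T/S/Z. The change was 0.61 ± 0.072 (adjusted p = 0.00078), and under the fold minimum without replicate 1 (0.56) and with 5 added before the log (0.57). In T/S/Z/N libraries the levels were 6.00, 5.95 and 5.99, different from T/S/Z by -0.43 ± 0.088 in log2 (adjusted p = 0.034) but short of 1.5-fold. In microglia the same stimulus gave -0.29, and the difference between the cell types was not tested, since provider and cell type cannot be told apart.

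Trem2 fell in astrocytes, from 2.24, 2.06 and 1.77 with DMSO to 1.13, 1.09 and 1.14 with T/S/Z, and stood at 1.28, 1.47 and 1.55 with T/S/Z/N. The change was -0.91 ± 0.13 (adjusted p = 0.0016), or -0.39 and under the fold minimum with 5 added before the log. For T/S/Z/N against DMSO it was -0.59 ± 0.15 (adjusted p = 0.032), a call that was lost without replicate 1 (-0.41) or 2 (adjusted p = 0.16). The mean levels of these 3 groups are 1.17 to 3.10 FPKM, beside 757 FPKM in microglia given DMSO.

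Markers of other cells moved with Trem2 in astrocyte libraries. The sum of the 10 microglial markers went from 0.0205% to 0.0215% of all FPKM with DMSO to 0.0129% to 0.0131% with T/S/Z and 0.0186% to 0.0199% with T/S/Z/N, and 5 of its 9 tested genes fell with T/S/Z (median log2 change -0.59), beside 8.99% of all genes. None of the 10 was at 0, the lowest level being 0.32 for P2ry12. Fibroblast markers moved the same way, all 6 falling with T/S/Z, from at least 0.136% to at most 0.0277% of all FPKM, and 5 of the 6 rising on adding Nec-1s, beside 1.51% of all genes. Of 4 endothelial and mural markers tested, 3 fell with T/S/Z, beside the same 8.99%. The part of any of these in the Trem2 change, or in those of Tyrobp, Gpnmb and Lpl given next, was not tested.

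The other 5 members gave no call in astrocytes. Tyrobp went from 3.67, 2.93 and 3.43 with DMSO to 3.01, 2.97 and 2.29 with T/S/Z (-0.59 ± 0.20, adjusted p = 0.053), and was past the threshold when replicate 2 was left out (-0.89, adjusted p = 0.0049). The change was -0.46 ± 0.097 for Gpnmb (adjusted p = 0.0094), -0.35 ± 0.12 for Lpl (adjusted p = 0.055) and 0.25 ± 0.077 for Spp1 (adjusted p = 0.039). Apoe differed by 0.038 ± 0.099 (adjusted p = 0.79), with levels between 9.97 and 10.41 over the 12 libraries.

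Nec-1s alone changed 0 of 8 members in astrocytes, none with an unadjusted p under 0.05, with limma calling 0.0144% of all genes and 790 genes at an unadjusted p under 0.05. Added to T/S/Z it also changed 0 of 8 by limma, although 5 had an unadjusted p under 0.05, as had 4134 of all 13842 genes. Of all genes 3.1% changed (1.51% upwards, 1.59% downwards, and 7.82% without a fold minimum, where Axl was the 1 of 8). T/S/Z/N against DMSO changed 2 of 8, Bhlhe40 upwards and Trem2 downwards, beside 9.08% (4.36% upwards, 4.72% downwards, and 27% without a fold minimum, beside 4 of 8).

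**Figure D5:**
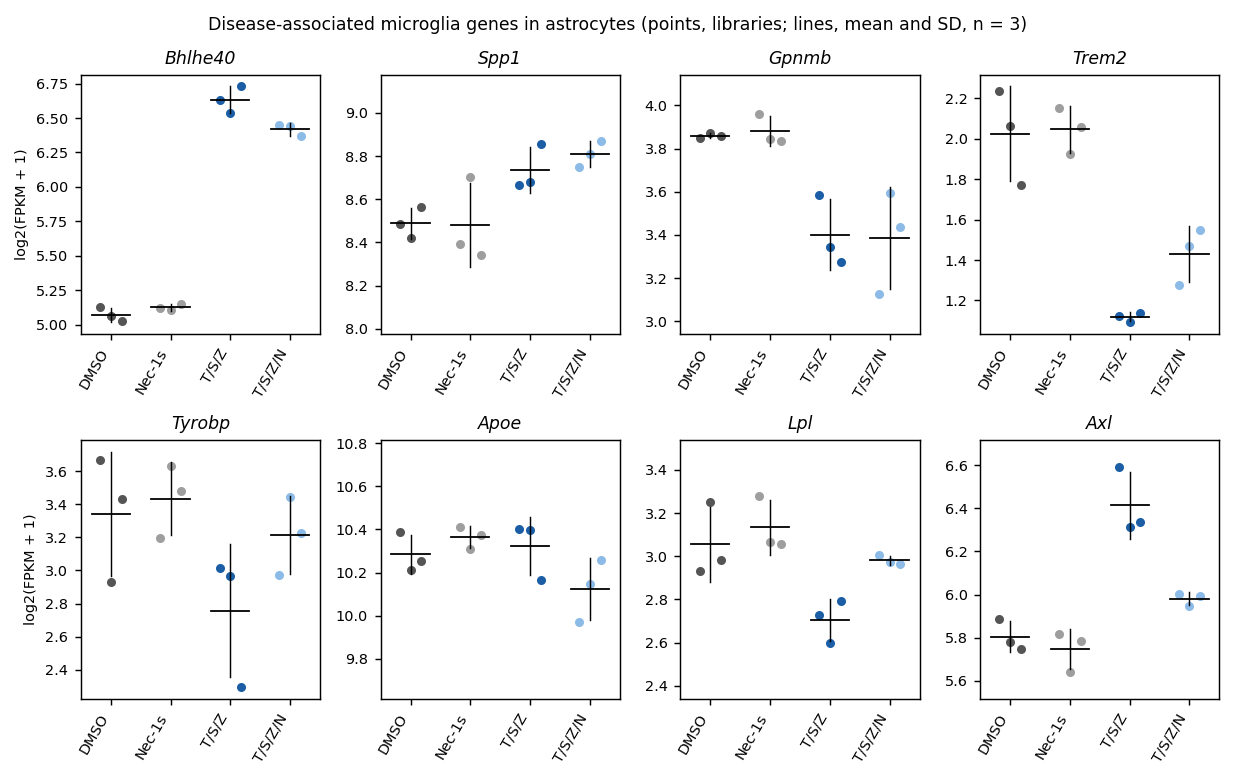
Level of the 8 listed genes in the 12 astrocyte libraries, as log2(FPKM + 1) on an axis scaled per gene, for 4 treatments; points are libraries, horizontal lines means and vertical lines SDs (n = 3). Bhlhe40 and Axl stand higher and Trem2 lower with T/S/Z than with DMSO, and Nec-1s leaves Bhlhe40 high, at 6.37 to 6.45.

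Levels in the astrocyte table, set beside the microglial table without a test because the tables were made separately, split the members. With DMSO, astrocytes had 0.410% of the microglial FPKM for Trem2, 0.737% for Tyrobp, 2.05% for Lpl, 2.16% for Gpnmb and 5.98% for Apoe. The microglial markers other than P2ry12 (19.3%) and Tmem119 (43.0%) lay between 0.349% and 5.07%. Spp1 was at 26.5%, Axl at 66.9% and Bhlhe40 at 746%, so the last was the only one of the 8 members with a higher value in astrocytes. The exon length behind an FPKM differs between the tables, for Trem2 by 1143 against 4946 bases. Taken over their sum, microglial markers in astrocytes stood at 1.29% of their microglial share (group means). That share of the microglial level, not adjusted for exon length, is 16.4 FPKM for Tyrobp, more than the 9.37 measured (564 against 667 bases). For Apoe it is 269.8 of the 1248 FPKM measured. For Trem2 it is 9.78 FPKM beside 3.10 measured, which cannot be ranked because the exon lengths are so unlike. The part of microglial RNA in these levels was not tested.

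Astrocyte markers rose in stimulated microglia, in 5 of 7 tested genes with each stimulus, beside 11.1% (T/5z) or 12.2% (T/S/Z) of all genes. Their sum went from 0.0019% to 0.0023% of all FPKM with DMSO to 0.0029% to 0.0055% with T/5z and 0.0030% to 0.0041% with T/S/Z, and stood at no more than 0.0023% with T/5z/N and 0.0016% with T/S/Z/N. Sox9 and S100b reached 0 or below in at least 1 microglial library, with lowest levels of -0.048 and -0.017, and the other 8 markers stayed above 0. On adding Nec-1s, 4 of the 7 fell in T/5z cells, beside 4.52% of all genes, and 5 of the 7 in T/S/Z cells, beside 6.72%. Fibroblast markers rose in 4 of 4 tested with T/5z (beside 11.1% of all genes), to at most 0.0043% of all FPKM from at most 0.0019%. With T/S/Z limma called 0 of the 4, at a median log2 change of -0.15, although 3 had an adjusted p under 0.05. Their part in the members' changes was not tested. Under T/S/Z the astrocyte marker sum was 0.438% of its level in astrocytes (group means). That share of the astrocyte level is 0.431 FPKM of Bhlhe40 against 50.5 measured, and 1.86 FPKM of Spp1 against 2129 measured.

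In astrocytes the list of other disease-associated microglia genes gave 11 changes of 35 with T/S/Z (31.4%, beside 15.4%), 7 upwards and 4 downwards. Ch25h rose by 3.88 and Cd83 by 3.18, and the growth factor gene Igf1 fell by 0.98 and the fatty acid binding protein gene Fabp5 by 0.84. Of 13 homeostatic microglia genes 7 fell (53.8%, beside 8.99% of all genes that fell) and 0 rose, with Tmem119 (-1.80) and Cx3cr1 (-1.08) first. Both are also microglial markers, whose mean sum fell from 0.0212% of all FPKM with DMSO to 0.0130% with T/S/Z. Fibroblast markers fell too, and the part of either fall in the changes of these lists was not tested. Of 10 partners of TREM2 and TYROBP 3 fell (30%, beside 8.99% of all genes that fell) and 0 rose, with Adam10 (-0.64) and Lyn (-0.62) first. Of 17 lipid genes 1 changed (5.88%, beside 15.4% of all genes), Angptl4, which rose (0.72) and had fallen in microglia. The short lists are to be read beside the same 15.4%. Of 4 TAM receptors and ligands 1 changed, Mertk, which fell (-0.84). Of 7 integrin and osteopontin partners 2 changed, Cd44 (1.57) and Itgav (0.82), which rose. Of 6 proteases that cystatin F can inhibit 1 changed, Ctsk, which fell (-1.91). Of 4 MiT/TFE factors and Bhlhe41 tested 3 changed, as Tfeb (0.64) and Tfe3 (0.59) rose while Bhlhe41 fell (-0.79).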

How the data were processed

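Microglia (24 libraries, 6 treatments of 4) and astrocytes (12 libraries, 4 treatments of 3) were measured by RNA-seq at 2 providers, Genewiz for microglia and BGI, strand-specifically, for astrocytes. The authors made the deposited log2(FPKM + 1) values in OmicSoft Array Studio, scaling each library to a common 75th percentile. Read counts were not used here, and whole reads could not be recovered (60.8% to 62.5% of values under 20 reads in the 6 microglial libraries of replicate 4, and 60.0% to 66.2% in the 12 astrocyte libraries, lay within 0.1 of a whole number). The microglial values are further adjusted, since each gene's replicate means are equal, and 18 microglial libraries held 187 to 1438 values below 0, none of a member. How that was done is not given in the sources used here. The annotation marks 7834 microglial and 8207 astrocyte genes as confounded, without a definition. All value columns were mapped to samples (0 were left over). Between replicates of 1 treatment, the root mean square difference over genes was 0.143 to 0.235 in microglia and 0.178 to 0.339 in astrocytes, so no 2 replicates of a treatment held the same values.

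Genes with log2 values of at least 1 in as many libraries as the smaller group were tested with limma 3.58.1 in R 4.3.3 (lmFit, eBayes with a trend, 2-sided), on the 2 groups compared, with replicate number as a block as in the study's own model. A call needed a Benjamini-Hochberg adjusted p under 0.05 over all genes tested and a fold change over 1.5. The interaction used 4 microglial groups. Fold changes on this scale understate those of low genes. Summaries used Python 3.11.15 and pandas 2.3.3. The fit was tested on simulated data.

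Same-numbered libraries were checked for shared deviations from their group means. In astrocytes 5 of 18 pairs had a correlation above 0.1 (-0.144 to 0.411), and in microglia 4 of 60 (-0.458 to 0.257), where equal replicate means make the check uninformative. The design text calls the microglial samples biological replicates. The p-values rest on the spread of differences within replicates, moderated towards a trend over all genes.

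Members that passed the filter were tested in every comparison and named where they passed, and the others were given by value in the main comparisons and by count in the rest. For the other lists, counts were given with the 2 largest rises and 2 largest falls that passed the test in T/5z and T/S/Z microglia and T/S/Z astrocytes, and lists of up to 8 genes could be named in full. The 2 genes most similar to each member were taken by root mean square difference. A few genes that these rules would name are not reported here. The members and lists were chosen with earlier results of these data known. Alternatives were no block, no or a 2-fold minimum, no filter or a mean of at least 3, 5 added before the log, median centring, quantile normalization, ordinary variances, one fit over all groups and leaving out each replicate. Promoters and gene positions are those of GRCm38 (promoters from RefSeq, GRCm38.p6).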

Additional observations from a re-analysis of the deposited data

Results flagged for a closer look

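Itgax stood at 0.72 in replicate 4 of the DMSO microglia, apart from the other 3 libraries of that group. It was the 1 such library among 60 groups of 4 looked at for the members, and chance sets a library apart in about 1 in 20 groups.

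The effect of Nec-1s differed between the stimuli in microglia for Spp1, by -0.70, and for Lpl, by -0.60, in a test of the difference itself. Neither call held without replicate 3, without replicate 4 or after quantile normalization (-0.34 and -0.36).

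In 5 cases every microglial library moved one way and every astrocyte library the other, and the difference was not tested. Axl changed by -0.29 in microglia and 0.61 in astrocytes with T/S/Z, by 0.087 and -0.43 on adding Nec-1s to T/S/Z, and by -0.20 and 0.18 with both against DMSO. For Spp1 the values on adding Nec-1s to T/S/Z were -0.64 and 0.075, and for Apoe with Nec-1s alone they were -0.13 and 0.080.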

How the results depend on the processing

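Of 1668 recomputed values (122 results in 14 comparisons), 1589 kept their direction and side of the threshold, 37 came past it, 42 fell short of it and 0 reversed. Counts below are of members called. A 2-fold minimum left 1 member each for T/5z against DMSO, T/S/Z against DMSO, Nec-1s in T/5z cells, Nec-1s in T/S/Z cells, T/S/Z against T/5z, and in astrocytes T/S/Z and T/S/Z/N against DMSO, and 0 for T/5z/N against DMSO, T/S/Z/N against T/5z/N and the interaction. With no minimum the counts were 5 for T/5z, 6 for T/S/Z, 6 for Nec-1s in T/5z cells, 2 for T/5z/N and 3 for T/S/Z/N against DMSO, 5 for T/S/Z against T/5z, 4 for T/S/Z/N against T/5z/N, 4 for the interaction, and in astrocytes 5 for T/S/Z, 1 for adding Nec-1s and 4 for T/S/Z/N against DMSO.

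Quantile normalization left 1 for Nec-1s in T/S/Z cells, 1 for T/S/Z against T/5z, 1 for T/S/Z/N against DMSO in astrocytes and 0 for the interaction. Ordinary variances left 1, 1 and 1 of these first 3, 0 for T/S/Z/N against T/5z/N and 0 for T/S/Z in astrocytes. Adding 5 before the log left 0 for T/5z/N against DMSO, and in astrocytes 1 for T/S/Z and 1 for T/S/Z/N against DMSO. A mean of at least 3, which drops Trem2 and Lpl in astrocytes, and median centring also left 1 for the latter.

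Leaving out 1 replicate gave 2 to 3 members for T/5z, 1 to 2 for T/S/Z and for Nec-1s in T/S/Z cells, 1 to 3 for T/S/Z against T/5z and 0 to 3 for the interaction, and in astrocytes 2 to 4 for T/S/Z and 1 to 2 for T/S/Z/N against DMSO. The other counts were unchanged by it.

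Among single members, Spp1 against T/5z in T/S/Z cells was 0.37 after quantile normalization (adjusted p = 0.083), had an adjusted p of 0.12 with ordinary variances and was 0.53 without replicate 4. The astrocyte T/S/Z/N change of Trem2 was -0.27 with 5 added, -0.49 after quantile normalization and -0.54 after median centring. Tyrobp in T/S/Z astrocytes had an adjusted p of 0.030 under the filter of 3. The interaction for Gpnmb came past the fold minimum after median centring (-0.60) and without replicate 1 or 3 (-0.59 and -0.63). The causes were not tested.

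The fit without the replicate block gave the same number of members in every comparison (2 with either stimulus against DMSO, for example), and all 122 results kept their direction and call. In microglia, where replicate means are equal already, this says nothing of the pairing. What depth limits was not tested. The added 1 compresses changes at the low log2 levels (0.46 to 2.24) of Itgax in microglia and Trem2 in astrocytes, and no counting interval can be given because read counts were not used.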
